A study of Homo sapiens with 10 samples.

Results

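The proteasome genes described here were chosen by symbol: every line of the deposited count table whose gene symbol is PSM, then a letter from A to G, then a number. The rule found 48 genes among 58735 lines, and the symbols cover the subunits of the proteasome core and cap, its activators and the factors that assemble it. Counts per gene were measured by RNA-seq in HCMECs, labelled as brain endothelial cells and recorded as a cell line with no clone named. In 5 libraries an siRNA was directed at USP9X (siUSP9X), a deubiquitinase that takes ubiquitin off other proteins, and in 5 the cells carried a control siRNA (siCtrl). Transfection lasted 48 h in both groups, and both then received the Wnt ligand Wnt3a for 12 h, so all values below are from Wnt3a-treated cells. Nothing in the labels tells whether a group's libraries were separate cultures, so the p-values rest on the spread between these libraries alone, and that spread may be technical.

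The proteasome is the protease complex that degrades proteins tagged with ubiquitin. Its barrel-shaped core has outer rings of alpha subunits, which gate the entry, and inner rings of beta subunits, some of which hold the cutting sites. A cap on the end of the core, made of a base with a ring of ATPases and of a lid, binds ubiquitin chains, removes them and threads the protein inward. Other caps can bind the core instead, and dedicated chaperones guide the assembly of core and base. When proteasome activity drops, the transcription factor NFE2L1 raises the mRNA of many subunits together. In endothelial cells, as elsewhere, inflammatory cytokines induce a variant core, the immunoproteasome.

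Library totals ran from 15958362 to 20442278 counts in siUSP9X and from 17716250 to 26467787 counts in siCtrl. USP9X mRNA, the target of the siRNA, had 36.5, 68.8, 27.6, 22.4 and 20.7 CPM (counts scaled to a common library total, with TMM factors) in siUSP9X replicates 1 to 5, against 416, 283, 330.3, 324 and 352 CPM in siCtrl replicates 1 to 5. It fell by 3.28 ± 0.32 on the log2 scale (edgeR adjusted p = 0.000403), with no overlap between the groups. The ± beside a log2 fold change is its SE throughout. Of 12 endothelial markers, 4 were above 1 CPM (ESAM, EGFL7, ENG and PROCR), and the other 8 were below 1 CPM in both group means, so most of the defining markers were at or near 0. PECAM1, VWF, KDR and CLDN5 had group means of at most 0.0963 CPM in siUSP9X and 0.208 CPM in siCtrl, and ERG had 0 counts. Leukocyte markers summed to 0.443 to 1.94 CPM in siUSP9X and 1.10 to 2.08 CPM in siCtrl. The keratin genes KRT8 and KRT18 made up nearly all of an epithelial marker sum of 2031 to 2759 CPM in siUSP9X and 3317 to 4179 CPM in siCtrl. EPCAM, CDH1, KRT5 and KRT19 had group means of at most 0.342 CPM in siUSP9X and 0.887 CPM in siCtrl. Neural markers, nearly all MBP, summed to 75.1 to 109 CPM in siUSP9X and 81.1 to 95.9 CPM in siCtrl. Mural and fibroblast markers summed to 3.82 to 7.70 CPM in siUSP9X and 3.62 to 5.18 CPM in siCtrl.

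The library labelled siUSP9X replicate 2 stood apart from the others. Only 2.12% of its counts fell on ribosomal protein genes, where siUSP9X replicates 1, 3, 4 and 5 had 4.47% to 5.17% and siCtrl had 4.83% to 6.44%. Its USP9X level was the highest of its group. Values are given with all 10 libraries and, where that library bears on them, again without it.

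Proteasome mRNAs were mostly lower in siUSP9X cells, by modest amounts. Of the 48 genes, 46 passed the filter on low counts and were tested. The other 2, PSMA8, the alpha subunit of the testis proteasome, and PSMB11, the beta subunit of the thymus proteasome, had 0 counts in every library, which allows up to 0.113 to 0.185 CPM per library (3 counts). With all libraries, 4 of the 46 tested genes (8.70%) fell at an adjusted p under 0.05, against 3.22% of all 13934 tested genes. They were PSME3, PSMD13, PSMC4 and PSMD2. None of the 46 rose by edgeR, against 4.09% of all tested genes. At an unadjusted p under 0.05, 21 of the 46 were lower (45.7%) and 1 higher (2.17%), against 11.9% and 15.9% of all tested genes. With the same libraries, DESeq2 gave 15 lower and 1 higher, against 1078 and 1264 of all 13934 tested genes. In limma-voom 5 were lower and 0 higher, against 491 and 546 of all tested genes. With library weights, added after the data were seen, limma-voom gave 28 lower and 2 higher, against 2444 and 2473. Calls below are edgeR's unless another tool is named. Without siUSP9X replicate 2, 20 of the 46 fell (43.5%), among them the same 4, against 11.5% of 14086 tested genes, and 1, PSME4, rose (2.17%), against 11.9%. Leaving out any other single library gave 0 higher and 2 or 3 lower.

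The direction was shared by most of the tested genes. The log2 fold change was below 0 for 39 of 46 with all libraries (84.8%), against 47.6% of all tested genes, and for 40 of 46 without siUSP9X replicate 2 (87.0%), against 49.1%. Its median over the 46 genes was -0.26 with all libraries and -0.22 without replicate 2, beside 0.03 and 0.01 over all tested genes. All siUSP9X libraries lay below all siCtrl libraries for 11 genes (23.9%), against 6.85% of all tested genes, and above them for 1 gene (2.17%), against 7.79%. Without replicate 2 the siUSP9X libraries lay below for 15 genes (32.6%), against 9.54%, and above for 2 (4.35%), against 10.4%. Members tended to be short: 28 of the 46 had a transcript under 2000 nt, against 2738 of 11949 tested protein-coding genes. Over all tested protein-coding genes the fold change ran with transcript length (Spearman rho 0.45, and 0.25 without replicate 2). The part of length in the shared direction was not tested.

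Summed over all members, proteasome mRNA made up 5841, 5478, 5865, 6213 and 6078 CPM in siUSP9X replicates 1 to 5, against 6627, 7916, 7209, 7079 and 6741 CPM in siCtrl replicates 1 to 5. Every siUSP9X sum was below every siCtrl sum. The mean was 5895 ± 279 CPM in siUSP9X and 7114 ± 508 CPM in siCtrl (SD, n = 5 each), a difference of -17.1%, or -15.7% without siUSP9X replicate 2. In bulk RNA, fewer cells that express these genes and less of their RNA per cell cannot be told apart. By role, the summed level differed by -34.4% for the immunoproteasome subunits (-26.1% without replicate 2), by -21.4% and -21.2% for the alpha and beta rings, by -17.5% for the base non-ATPases and by -16.7% for the base ATPases. It differed by -14.4% for the lid and -9.64% for the activators and their inhibitor, by -17.8% for the chaperones of core assembly and by 3.71% for those of cap assembly. Without replicate 2 the alpha and beta rings stood at -16.5% and -15.1%, below the base non-ATPases in size (-22.4%), and the base ATPases at -15.55%. The lid then stood at -15.0%, the activators and inhibitor at -11.25%, core assembly at -15.95% and cap assembly at 4.08%.

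**Figure D1:**
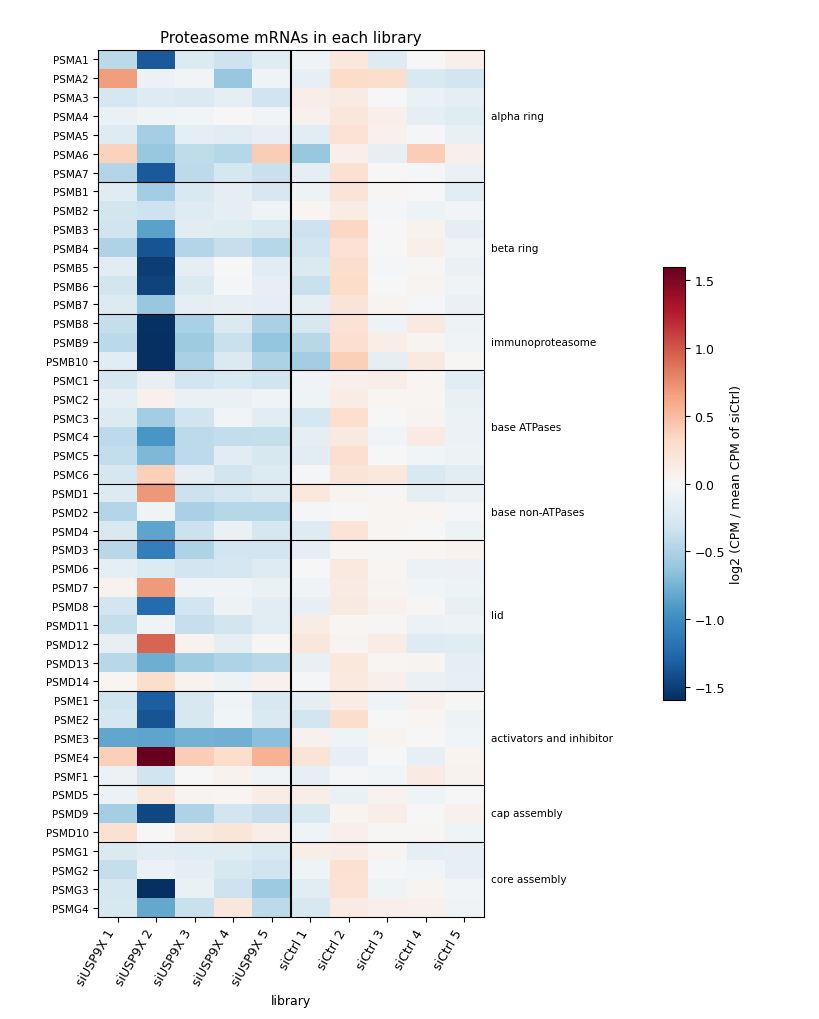
Level of each of the 46 tested genes (rows, by role) in each library (columns, siUSP9X left of siCtrl), as log2 of its CPM over the siCtrl mean, blue for lower and red for higher. Most rows are pale blue across siUSP9X replicates 1, 3, 4 and 5, PSME3 is evenly blue in all 5, and replicate 2 holds the strongest blues and reds.

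The promoters of the members were read from RefSeq (GRCh38.p14, 250 bases before to 50 after each start), where 42 of the 48 genes had an entry. PSMA7, PSMB1, PSMB6, PSMB7, PSMD4 and PSMG3 had none. NFE2L1 and its relative NFE2L2 bind the antioxidant response element, searched here as TGACNNNGC on both strands. It was found in 14 of the 42 promoters (33.3%), against 13.4% of all 27305 promoters of the table and 15.1% of 9912 promoters of tested genes. Among members that fell without siUSP9X replicate 2 it was in 6 of 17 (35.3%), and among tested members that did not pass the threshold there in 7 of 22 (31.8%). The CCAAT box (CCAAT, both strands, overlap with the first motif allowed) was in 18 of 42 (42.9%), against 35.4% of all promoters, with 5 of 17 (29.4%) among those that fell and 12 of 22 (54.5%) among those not called. The stretches just upstream of a lid and a beta ring gene are shown, each with 1 match to the element in capitals: PSMD3 (chr17:39980557-39980796, plus strand, match starting at -37 from the RefSeq start) and PSMB3 (chr17:38752491-38752730, plus strand, match starting at -104).
PSMD3: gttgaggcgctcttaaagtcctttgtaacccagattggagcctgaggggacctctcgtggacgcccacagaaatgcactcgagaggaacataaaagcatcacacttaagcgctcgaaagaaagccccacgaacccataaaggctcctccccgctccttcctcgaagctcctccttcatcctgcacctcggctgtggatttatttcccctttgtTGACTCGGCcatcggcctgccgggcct
PSMB3: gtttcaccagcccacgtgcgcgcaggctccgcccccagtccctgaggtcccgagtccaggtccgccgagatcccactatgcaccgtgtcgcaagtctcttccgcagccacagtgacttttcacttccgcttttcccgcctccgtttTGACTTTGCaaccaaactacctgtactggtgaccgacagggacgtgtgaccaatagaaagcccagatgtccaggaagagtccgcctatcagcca
A match is a run of letters and was not tested for binding.

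No alpha ring gene passed the threshold with all libraries, and 3 of 7, PSMA1, PSMA3 and PSMA7, fell without siUSP9X replicate 2. PSMA7 had the lowest fold change of the ring. In siUSP9X replicates 1 to 5, PSMA7 stood at 379, 206, 391, 432 and 410.0 CPM, against 469.7, 620.2, 523, 515 and 488 CPM in siCtrl replicates 1 to 5. All siUSP9X libraries lay below all siCtrl libraries, and replicate 2 was far below its group. The log2 fold change of PSMA7 was -0.52 ± 0.18 (edgeR adjusted p = 0.0947), and -0.37 ± 0.08 without replicate 2 (adjusted p = 0.0029). PSMA3 lay at 101 to 113 CPM in siUSP9X and 114 to 138 CPM in siCtrl, with a log2 fold change of -0.24 ± 0.09 in all 10 libraries and -0.25 ± 0.08 without replicate 2 (edgeR adjusted p = 0.12 and 0.0308). PSMA2 had the highest fold change of the ring, at 0.03 ± 0.23. The values of PSMA2 were 7.29, 4.32, 4.46, 3.02 and 4.36 CPM in siUSP9X replicates 1 to 5, and 4.18, 5.62, 5.58, 3.86 and 3.71 CPM in siCtrl replicates 1 to 5. The groups overlapped and siUSP9X replicate 1 was the highest library. PSMA1 had a log2 fold change of -0.45 ± 0.19 in all 10 libraries and -0.29 ± 0.10 without replicate 2 (edgeR adjusted p = 0.154 and 0.0448). The remaining genes, PSMA4, PSMA5 and PSMA6, had log2 fold changes of -0.05, -0.24 and -0.08 (-0.05, -0.17 and 0.03 without replicate 2) and overlapping groups.

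Some alpha genes share sequence with other genes. Of the 50-base words of the PSMA6, PSMA2 and PSMA1 transcripts, 85.6%, 51.0% and 48.4% also occur in transcripts of other annotated genes, chiefly the overlapping coding genes AL121594.1, AC010132.3 and AC018523.2. Those 3 lines held 43, 0 and 1 counts over all 10 libraries. The sources used here do not give how reads in shared sequence were counted, so the levels of PSMA1, PSMA2 and PSMA6 are uncertain. The same holds for PSMB10, PSMD9, PSMC1, PSMC6 and PSMD4, which share 38.9%, 35.8%, 29.0%, 24.7% and 21.9% of their words with other genes or pseudogenes.

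Levels were compared between genes per kilobase of 1 annotated transcript, and they depend on the transcript chosen. In siUSP9X, PSMA7 was highest among the core genes at 365 ± 90.6 CPM per kb, followed by PSMB4 at 243 ± 57.9, PSMB3 at 220 ± 38.1 and PSMB7 at 204 ± 25.7 CPM per kb. In siCtrl the same genes stood at 525 ± 58.5, 365 ± 49.2, 277 ± 48.3 and 241 ± 23.7 CPM per kb (SD, n = 5). The mean ± SD ranges of PSMB3 and PSMB7 overlapped in both groups, and the genes were not compared within libraries. The lowest core genes outside the ones with shared sequence were PSMA4 (32.3 ± 0.812 CPM per kb in siUSP9X, 33.5 ± 3.77 in siCtrl), PSMB8 (44.4 ± 13.1 and 66.2 ± 8.83), PSMB2 (47.8 ± 3.49 and 55.2 ± 3.01) and PSMA5 (49.0 ± 5.29 and 57.7 ± 6.67). For PSMB8, PSMB2 and PSMA5 these ranges overlapped in siUSP9X, again without a comparison within libraries. In the cap, PSMC3 was highest, at 175 ± 22.5 CPM per kb in siUSP9X and 209 ± 28.7 in siCtrl.

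In the beta ring, all 7 fold changes were negative and none passed the threshold with all libraries. PSMB4, a structural subunit, had the lowest fold change and fell without siUSP9X replicate 2. By library, PSMB4 had 251, 135, 254, 273 and 257 CPM in siUSP9X (replicates 1 to 5) and 284, 413, 352, 372 and 337 CPM in siCtrl. The groups did not overlap. Its log2 fold change was -0.59 ± 0.18 (edgeR adjusted p = 0.0702), and -0.44 ± 0.09 without replicate 2 (adjusted p = 0.00164). PSMB2, another structural subunit, was nearest to 0 with all libraries. For PSMB2, the 5 siUSP9X libraries held 190.5, 186, 201, 208 and 223 CPM in replicate order, against 239, 252, 227, 219 and 227 CPM in siCtrl. Its log2 difference was -0.21 ± 0.09 (edgeR adjusted p = 0.159), with siUSP9X replicate 5 above the lowest siCtrl library. Without replicate 2 it was -0.18, and the catalytic subunits PSMB5, PSMB6 and PSMB7 were nearer to 0.

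The catalytic subunits of the standard core are PSMB5, PSMB6 and PSMB7, which cut after hydrophobic, acidic and basic residues. PSMB5 had 147, 58.4, 149.5, 166 and 148 CPM in siUSP9X replicates 1 to 5, against 142, 202, 163, 169 and 154 CPM in siCtrl replicates 1 to 5. Outside replicate 2 the siUSP9X libraries lay within the siCtrl range. In siUSP9X replicates 1 to 5, PSMB6 stood at 112, 49.0, 117, 134 and 125 CPM, against 107, 167, 136, 141 and 132 CPM in siCtrl replicates 1 to 5. PSMB6 showed the same picture as PSMB5, with replicate 2 low and the rest overlapping siCtrl. The values of PSMB7 were 203, 156, 213, 215 and 212 CPM in siUSP9X replicates 1 to 5, and 213, 272, 244, 233 and 219.7 CPM in siCtrl replicates 1 to 5. For PSMB7 the groups overlapped only where siUSP9X replicate 4 stood above siCtrl replicate 1. The log2 fold changes were -0.31 ± 0.23, -0.35 ± 0.23 and -0.24 ± 0.12 with all libraries (edgeR adjusted p = 0.385, 0.331 and 0.195). Without replicate 2 they were -0.12 ± 0.09, -0.16 ± 0.10 and -0.16 ± 0.08 (adjusted p = 0.364, 0.267 and 0.135), closer to 0 for all 3. PSMB1 and PSMB3 had log2 fold changes of -0.27 and -0.34, neither past the threshold with or without replicate 2.

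The immunoproteasome subunits PSMB8, PSMB9 and PSMB10 take the places of PSMB5, PSMB6 and PSMB7 in the variant core, which trims peptides for display on MHC class I. As a group they had the lowest median log2 fold change of any role, -0.58, and -0.40 without siUSP9X replicate 2, and 2 of 3 fell without that library. By library, PSMB9 had 66.2, 28.6, 60.5, 69.8 and 58.5 CPM in siUSP9X (replicates 1 to 5) and 65.6, 108, 95.9, 92.2 and 86.1 CPM in siCtrl. Only siCtrl replicate 1 reached into the siUSP9X range. PSMB9 had a log2 fold change of -0.66 ± 0.22 (edgeR adjusted p = 0.0887), and -0.49 ± 0.11 without replicate 2 (adjusted p = 0.00441). For PSMB8, the 5 siUSP9X libraries held 68.7, 30.0, 62.4, 76.3 and 62.4 CPM in replicate order, against 75.1, 105, 84.4, 98.3 and 84.3 CPM in siCtrl. Here siUSP9X replicate 4 reached above siCtrl replicate 1. PSMB8 had a log2 fold change of -0.58 ± 0.21 (adjusted p = 0.113), and -0.40 ± 0.10 without replicate 2 (adjusted p = 0.00675). PSMB10 had 17.2, 5.81, 13.5, 16.4 and 13.6 CPM in siUSP9X replicates 1 to 5, against 13.1, 25.1, 17.4, 21.3 and 19.5 CPM in siCtrl replicates 1 to 5. PSMB10 overlapped widely between groups, and its log2 fold change of -0.54 ± 0.26 (adjusted p = 0.205) was -0.34 ± 0.15 without replicate 2 (adjusted p = 0.104). PSMB8 (chromosome 6, 32840717 to 32844703, minus strand, GRCh38) and PSMB9 (32844136 to 32859585, plus strand) overlap at their ends. The library kit keeps strand per the labels, but the counting setting is not given, so reads from that overlap may not be separated. For each of the 3 genes siUSP9X replicate 2 and siCtrl replicate 1 were the lowest of their groups.

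The immunoproteasome share was set against the standard subunit of the same site, per kilobase, within each library. PSMB8 made up 31.0%, 33.0%, 28.6%, 30.6% and 28.7% of PSMB8 plus PSMB5 in siUSP9X replicates 1 to 5, against 33.7%, 33.2%, 33.1%, 35.8% and 34.4% in siCtrl replicates 1 to 5. Every siUSP9X library was lower than every siCtrl library, replicate 2 included. PSMB9 made up 36.9% ± 2.24 of PSMB9 plus PSMB6 in siUSP9X and 41.6% ± 1.25 in siCtrl (SD, n = 5 each), with no overlap (33.8% to 39.2% and 40.1% to 43.5%). PSMB10 made up 4.97% ± 1.31 of PSMB10 plus PSMB7 in siUSP9X and 6.12% ± 0.993 in siCtrl, and the groups overlapped. These shares were not put to a test, since the pairs were picked with the fold changes in view.

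**Figure D2:**
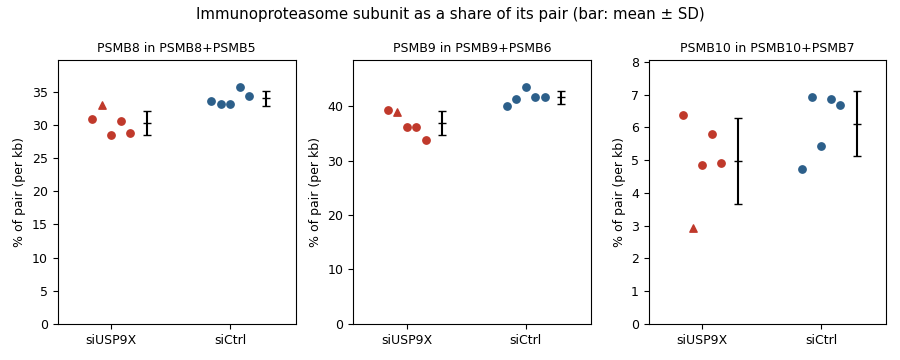
Share of the immunoproteasome subunit in its pair (y axis, percent, per kilobase of transcript) in each library, siUSP9X in red and siCtrl in blue, with siUSP9X replicate 2 as a triangle and mean ± SD as bars. For PSMB8 and PSMB9 all siUSP9X points lie below all siCtrl points (at most 33.0% and 39.2% in siUSP9X, at least 33.1% and 40.1% in siCtrl), and for PSMB10 they overlap.

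The base of the cap holds a ring of ATPases, PSMC1 to PSMC6, that unfolds the substrate. All 6 fold changes were negative, with a median of -0.25 (-0.26 without siUSP9X replicate 2). PSMC4 fell with all libraries, and PSMC1, PSMC4 and PSMC5 fell without replicate 2. In siUSP9X replicates 1 to 5, PSMC4 stood at 113, 79.0, 112, 114 and 115 CPM, against 134, 166, 146, 165 and 142 CPM in siCtrl replicates 1 to 5. All siUSP9X libraries lay below all siCtrl libraries. PSMC4 averaged 107 ± 15.4 CPM in siUSP9X and 150.4 ± 14.1 CPM in siCtrl (SD, n = 5 each). The log2 fold change, -0.50 ± 0.12 with all libraries (edgeR adjusted p = 0.0351), was -0.41 ± 0.08 without replicate 2 (adjusted p = 0.00106). The call rests on several libraries: it was kept in 3 of the 10 fits with a library left out, those without siCtrl replicate 1, siUSP9X replicate 2 or siUSP9X replicate 4, and the adjusted p was 0.0613 to 0.0952 in the rest. PSMC2 was nearest to 0. The values of PSMC2 were 111, 130.0, 115, 115 and 118 CPM in siUSP9X replicates 1 to 5, and 117, 134, 126, 126 and 114 CPM in siCtrl replicates 1 to 5. The groups overlapped, and its log2 fold change was -0.07 ± 0.09. PSMC3, PSMC5, PSMC1 and PSMC6 had log2 fold changes of -0.25, -0.39, -0.25 and -0.09. For PSMC1, PSMC5 and PSMC6 they were -0.29 ± 0.08, -0.31 ± 0.09 and -0.23 ± 0.09 without replicate 2 (adjusted p = 0.0154, 0.0167 and 0.0785).

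The non-ATPase subunits of the base are the scaffold proteins PSMD1 and PSMD2 and the ubiquitin receptor PSMD4, and all 3 fell without siUSP9X replicate 2. By library, PSMD2 had 369.6, 489, 358, 372 and 374 CPM in siUSP9X (replicates 1 to 5) and 502, 514, 522, 526 and 502 CPM in siCtrl. The siUSP9X libraries other than replicate 2 lay within a narrow band, well under siCtrl, and replicate 2 lay just below siCtrl. PSMD2 averaged 393 ± 54.3 CPM in siUSP9X and 513 ± 11.4 CPM in siCtrl (SD, n = 5 each). It fell by 0.39 ± 0.10 on the log2 scale (edgeR adjusted p = 0.045), and by 0.48 ± 0.06 without replicate 2 (adjusted p = 3.75e-05). Without any 1 of the other 9 libraries its adjusted p was between 0.0704 and 0.113, so that call is close to the threshold. For PSMD1, the 5 siUSP9X libraries held 202, 381, 186, 193 and 201 CPM in replicate order, against 264, 242, 238, 213 and 218 CPM in siCtrl. Replicate 2 was the highest library for PSMD1, and the other 4 siUSP9X libraries lay below all of siCtrl. Its log2 fold change was -0.01 ± 0.19 (adjusted p = 0.965) in all 10 libraries and -0.26 ± 0.08 (adjusted p = 0.0185) without replicate 2. PSMD4 had -0.34 ± 0.14 (adjusted p = 0.143) and -0.24 ± 0.08 (adjusted p = 0.0496).

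The lid removes the ubiquitin chain. PSMD13, one of its structural subunits, fell with all libraries, and PSMD3, PSMD6, PSMD11 and PSMD13 fell without siUSP9X replicate 2, 4 of 8 lid genes. PSMD13 had 97.3, 77.2, 89.4, 93.8 and 97.6 CPM in siUSP9X replicates 1 to 5, against 122, 148, 136, 136 and 120.0 CPM in siCtrl replicates 1 to 5. The highest siUSP9X library was below the lowest siCtrl library. PSMD13 (chromosome 11, 236546 to 252984, plus strand, GRCh38) averaged 91.1 ± 8.44 CPM in siUSP9X and 132 ± 11.7 CPM in siCtrl (SD, n = 5 each), with a log2 fold change of -0.54 ± 0.10 (edgeR adjusted p = 0.0123). It stood at -0.48 ± 0.08 without replicate 2 (adjusted p = 0.000269), and it passed in each of the 10 fits with a library left out. PSMD3, whose promoter holds the element, had 164 to 188 CPM in siUSP9X outside replicate 2, which was at 109 CPM, against 211 to 242 CPM in siCtrl. The groups did not overlap, and the log2 fold change of -0.50 ± 0.14 missed the threshold in edgeR (adjusted p = 0.0549) and passed it without replicate 2 (-0.39 ± 0.07, adjusted p = 0.000889). With all libraries PSMD3 passed in DESeq2 (adjusted p = 0.00868) and limma-voom (0.0483, and 3.36e-05 with library weights). PSMD12 had the highest fold change of the lid with all libraries. In siUSP9X replicates 1 to 5, PSMD12 stood at 93.0, 193, 106, 91.5 and 102 CPM, against 116, 105, 110.4, 88.2 and 89.1 CPM in siCtrl replicates 1 to 5. Replicate 2 was the only library that stood out. With it the log2 fold change was 0.21 ± 0.20, and without it -0.05 ± 0.09. PSMD14, the lid's deubiquitinase, had 0.07 ± 0.10 and 0.02 ± 0.08, and PSMD7, its partner, 0.13 ± 0.15 and -0.04 ± 0.08. PSMD6 and PSMD11 had -0.23 ± 0.08 and -0.30 ± 0.07 without replicate 2 (adjusted p = 0.0367 and 0.00609), and PSMD8 -0.21 ± 0.08 (adjusted p = 0.061), against -0.37 with it.

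**Figure D3:**
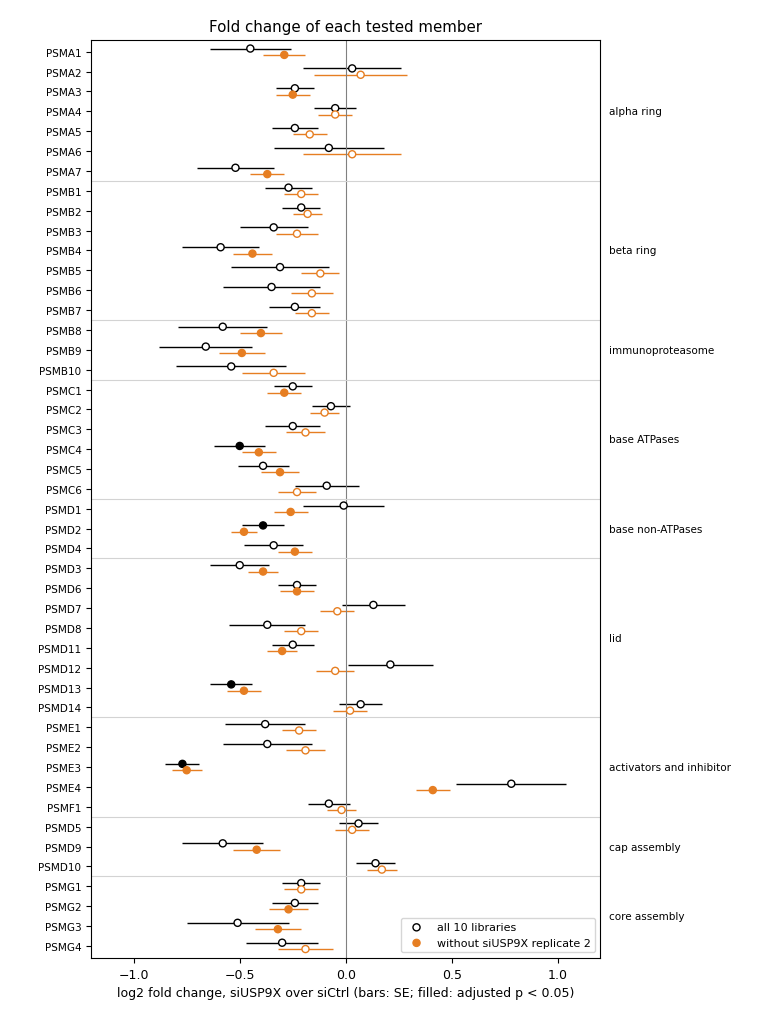
Log2 fold change, siUSP9X over siCtrl (x axis), of each tested gene (rows, by role), with all 10 libraries in black and without siUSP9X replicate 2 in orange. Bars are SE and filled points passed an adjusted p of 0.05: 4 with all libraries, and 20 lower and 1 higher, PSME4, without replicate 2.

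Of the alternative activators, PSME3 fell, and PSME4 was higher, past the threshold in edgeR without siUSP9X replicate 2 and not with it. PSME3 and PSME4 encode activators found in the nucleus. PSME3 forms a ring that opens the core to proteins without a ubiquitin chain, and PSME4 is a single large protein linked to the breakdown of acetylated histones. The values of PSME3 were 142, 139.8, 149, 147 and 158 CPM in siUSP9X replicates 1 to 5, and 263, 239, 258, 250.5 and 244 CPM in siCtrl replicates 1 to 5. Both groups were tight, and replicate 2 lay with the rest of its group. PSME3 (chromosome 17, 42824385 to 42843758, plus strand, GRCh38) averaged 147 ± 7.06 CPM in siUSP9X and 251 ± 9.84 CPM in siCtrl (SD, n = 5 each), a difference of -41.4%. It fell by 0.77 ± 0.08 on the log2 scale (edgeR adjusted p = 0.000492), and by 0.75 ± 0.07 without replicate 2 (adjusted p = 5.42e-07). It passed the threshold in every fit with a library left out and was the only member to pass it at 0.01 and with the replicate number as a block.

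By library, PSME4 had 191, 484, 193, 179 and 216 CPM in siUSP9X (replicates 1 to 5) and 169.8, 134, 146, 134 and 151 CPM in siCtrl. PSME4 was higher in every siUSP9X library than in any siCtrl library, with replicate 2 far above the rest of its group. Its log2 fold change was 0.78 ± 0.26 (edgeR adjusted p = 0.0864), and without replicate 2 it rose by 0.41 ± 0.08 (adjusted p = 0.00197). With all libraries PSME4 passed in DESeq2 (adjusted p = 0.0315) and in limma-voom with library weights (0.43 on the log2 scale, adjusted p = 0.000219), and not in limma-voom without them (0.106). PSME1 and PSME2, which together form the cytoplasmic activator induced with the immunoproteasome, had log2 fold changes of -0.38 ± 0.19 and -0.37 ± 0.21 (adjusted p = 0.213 and 0.271), and -0.22 ± 0.08 and -0.19 ± 0.09 without replicate 2 (adjusted p = 0.0516 and 0.151). PSMF1, named for its inhibition of the core in vitro, lay at 142 to 183 CPM in siUSP9X and 161 to 192 CPM in siCtrl, with -0.08 ± 0.10 (-0.02 without replicate 2).

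**Figure D4:**
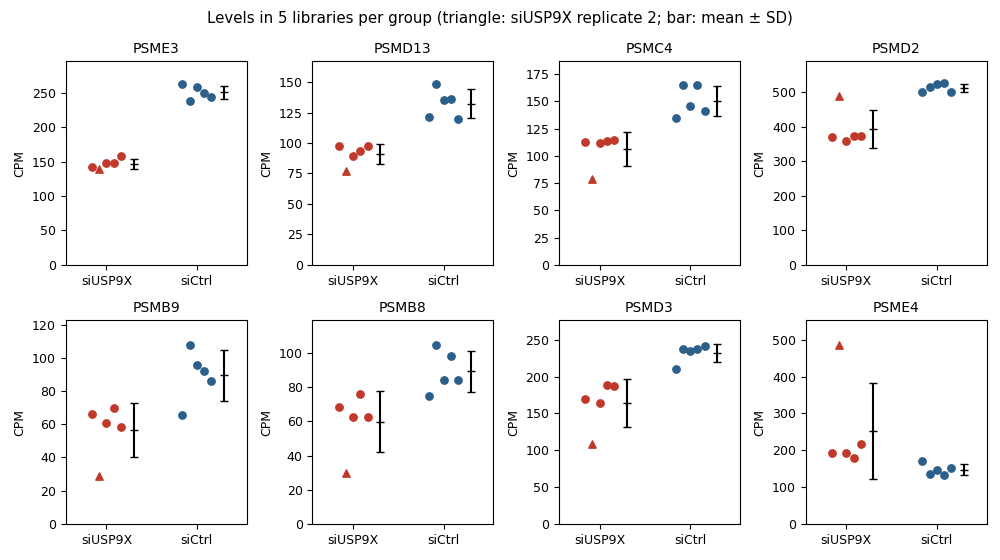
CPM (y axis, from 0) of 8 proteasome genes in each library, siUSP9X in red and siCtrl in blue, with siUSP9X replicate 2 as a triangle and mean ± SD beside each group. PSME3 separates the groups with little spread (139.8 to 158 CPM in siUSP9X, 239 to 263 CPM in siCtrl), while for PSME4, PSMD3, PSMB8 and PSMB9 the triangle lies far from its group.

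The 7-base words AATCACA and ATCACAA, which overlap, and AACTCTA and CAACTCT, which also overlap, were searched in 3′ UTRs because earlier work on these libraries picked them from the same fold changes, so their presence in genes that fell is no independent evidence. Of the 46 tested members, 7 (15.2%) held at least 1, against 29.1% of 11884 tested genes with an annotated 3′ UTR. A longer 3′ UTR has more room for a word. Those of tested members ran from 44 nt (PSME2) to 4226 nt (PSMG4), and these shares were not adjusted for length. PSME3 held AATCACA, PSMC1 held ATCACAA and PSMD9 held AACTCTA, while PSMA5, PSMD12, PSMF1 and PSMG4 held a word and were not called in either comparison. PSMC4, PSMD2 and PSMD13 held none. The sites of AATCACA (capitals) in the member with the lowest fold change and in a member that was not called (PSMD12, 0.21 with all libraries and -0.05 without siUSP9X replicate 2) are shown for comparison, from GRCh38: PSME3 at chr17:42841671-42841697 on the plus strand and PSMD12 at chr17:67340220-67340246 on the minus strand.
PSME3: tggaaatagtAATCACAcctctctgtt
PSMD12: ggctggttccAATCACAgtagcttgat
Whether either site binds anything was not tested.

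The chaperones of base assembly, PSMD5, PSMD9 and PSMD10, did not share a direction. For PSMD9, the 5 siUSP9X libraries held 9.29, 4.93, 9.61, 10.9 and 10.5 CPM in replicate order, against 11.4, 13.9, 14.5, 13.5 and 14.2 CPM in siCtrl. Groups did not overlap for PSMD9, whose counts were low. Its log2 fold change was -0.58 ± 0.19 (edgeR adjusted p = 0.0846), and it fell by 0.42 ± 0.11 without siUSP9X replicate 2 (adjusted p = 0.00962). PSMD10 had 85.6, 72.4, 80.2, 82.9 and 78.3 CPM in siUSP9X replicates 1 to 5, against 69.4, 76.9, 73.7, 73.2 and 69.3 CPM in siCtrl replicates 1 to 5. PSMD10, also known as gankyrin, was above siCtrl in every siUSP9X library except replicate 2. PSMD10 had a log2 fold change of 0.14 ± 0.09 (adjusted p = 0.303), and 0.17 ± 0.07 without replicate 2 (adjusted p = 0.0925). PSMD5 had 0.06 ± 0.09 (0.03 without replicate 2) and overlapping groups.

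The chaperones of core assembly, PSMG1 to PSMG4, pair up to build the alpha ring. All 4 had negative fold changes with a median of -0.27, none past the threshold, and PSMG2 and PSMG3 fell without siUSP9X replicate 2. In siUSP9X replicates 1 to 5, PSMG3 stood at 21.5, 8.14, 24.3, 20.8 and 17.5 CPM, against 23.1, 30.7, 24.9, 27.1 and 25.3 CPM in siCtrl replicates 1 to 5. The groups overlapped at siUSP9X replicate 3. PSMG3 had a log2 fold change of -0.51 ± 0.24 (edgeR adjusted p = 0.185), and -0.32 ± 0.11 without replicate 2 (adjusted p = 0.0431). The values of PSMG1 were 44.6, 46.1, 45.6, 45.6 and 44.1 CPM in siUSP9X replicates 1 to 5, and 55.5, 56.7, 54.0, 47.3 and 47.6 CPM in siCtrl replicates 1 to 5. For PSMG1 the groups did not overlap, and the difference was small: -0.21 ± 0.09 with all libraries (adjusted p = 0.168) and -0.21 ± 0.08 without replicate 2 (adjusted p = 0.0749). PSMG2 and PSMG4 had -0.27 ± 0.09 and -0.19 ± 0.13 without replicate 2 (adjusted p = 0.0418 and 0.298).

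Around the complex, 35 further genes were read as a list: other subunits and assembly factors, ubiquitin receptors and shuttles, the NFE2L1 route, the VCP unfoldase and its adaptors, and ubiquitin itself. All 35 were tested, and their median log2 fold change was -0.07 (-0.03 without siUSP9X replicate 2). With all libraries 1 fell, VCP, and 1 rose, DDI2, each 2.86% of the list, against 3.22% and 4.09% of all tested genes. Without replicate 2, VCP and the ubiquitin receptor gene ADRM1 fell, and DDI2, ZFAND5, NFE2L2, FAF1 and UBXN7 rose. These are 5.71% and 14.3% of the list, against 11.5% and 11.9% of all tested genes. By library, VCP had 422, 459, 426, 455 and 475 CPM in siUSP9X (replicates 1 to 5) and 663, 663, 654, 682 and 654 CPM in siCtrl. VCP, an ATPase that extracts ubiquitylated proteins from complexes and membranes, separated the groups completely. It fell by 0.57 ± 0.08 on the log2 scale (edgeR adjusted p = 0.0024), and by 0.58 ± 0.07 without replicate 2, and passed in each of the 10 fits with a library left out. For DDI2, the 5 siUSP9X libraries held 61.0, 104, 62.1, 64.8 and 78.6 CPM in replicate order, against 57.3, 37.2, 48.0, 39.0 and 47.7 CPM in siCtrl. DDI2, the protease that cleaves NFE2L1 into its active form, was higher in every siUSP9X library. It rose by 0.70 ± 0.18 (adjusted p = 0.0379), and by 0.54 ± 0.12 without replicate 2 (adjusted p = 0.00279). It passed in 4 of the 10 fits with a library left out, those without siCtrl replicate 1 or siUSP9X replicate 1, 2 or 4.

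NFE2L1 itself did not pass the threshold. NFE2L1 had 277, 223, 255, 269.7 and 273 CPM in siUSP9X replicates 1 to 5, against 263, 247, 273, 289 and 287 CPM in siCtrl replicates 1 to 5. Its log2 fold change was -0.07 ± 0.10 in all 10 libraries and -0.02 ± 0.07 without siUSP9X replicate 2. NFE2L2, the relative that also acts on proteasome genes, had 0.37 ± 0.12 (edgeR adjusted p = 0.0711) and rose by 0.27 ± 0.07 without replicate 2 (adjusted p = 0.0129). In siUSP9X replicates 1 to 5, ADRM1 stood at 161, 78.0, 154, 182 and 171 CPM, against 143, 252, 234, 240.2 and 198 CPM in siCtrl replicates 1 to 5. ADRM1 in siCtrl replicate 1 lay within the siUSP9X range. Its log2 fold change was -0.52 ± 0.22 (adjusted p = 0.159), and -0.35 ± 0.12 without replicate 2 (adjusted p = 0.0448). The values of POMP were 90.9, 62.9, 111, 105 and 100.4 CPM in siUSP9X replicates 1 to 5, and 114, 133, 112, 99.0 and 91.5 CPM in siCtrl replicates 1 to 5. POMP, the maturation factor of the core, overlapped between groups, at -0.22 ± 0.16. By library, SEM1 had 44.0, 17.1, 38.8, 54.0 and 43.8 CPM in siUSP9X (replicates 1 to 5) and 51.2, 65.8, 63.0, 47.2 and 43.0 CPM in siCtrl. SEM1, the smallest lid subunit, also overlapped, at -0.45 ± 0.25. Without replicate 2, POMP and SEM1 stood at -0.10 ± 0.10 and -0.26 ± 0.12.

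The deviation of siUSP9X replicate 2 moved with transcript length and with GC content, which were not separated here. Across the 46 tested members, the log2 ratio of replicate 2 to the mean of the other 4 siUSP9X libraries had a Spearman rho of 0.62 with transcript length and -0.68 with GC content, a description over genes of 1 library that are not independent. Over 11949 tested protein-coding genes the same values were 0.59 and -0.70. The median ratio was -0.57 for 28 members under 2000 nt and 0.06 for 8 members of 4000 nt or more. Over all tested protein-coding genes it was -0.73 for the 2738 under 2000 nt and 0.57 for the 4569 of 4000 nt or more. PSMB5 (1294 nt) stood at -1.39, PSMA7 (996 nt) at -0.97, PSMD12 (4406 nt) at 0.98 and PSME4 (7099 nt) at 1.31. The fold change between groups also ran with length, with a rho of 0.40 over members and 0.45 over all tested protein-coding genes, and 0.17 and 0.25 without replicate 2. Its part in the individual fold changes was not tested. All 4 members called with all libraries, PSME3 (3366 nt), PSMD13 (1991 nt), PSMC4 (1591 nt) and PSMD2 (3449 nt), kept their calls without siUSP9X replicate 2. So did VCP and DDI2.

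**Figure D5:**
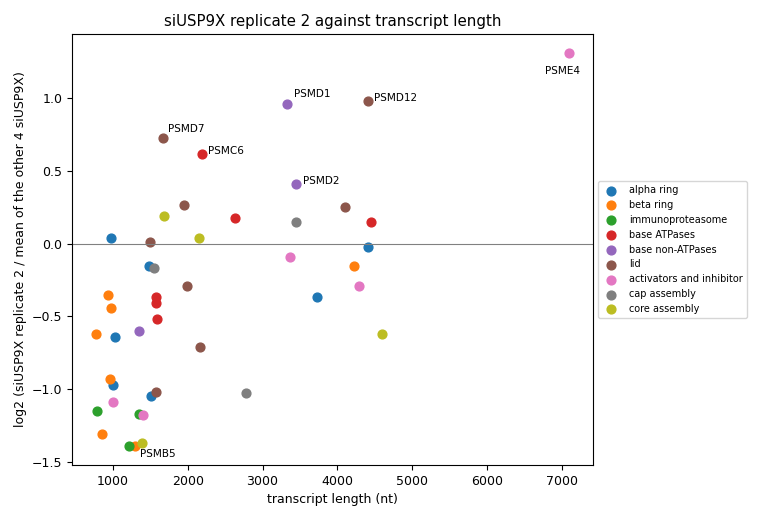
Log2 ratio of siUSP9X replicate 2 to the mean of the other 4 siUSP9X libraries (y axis) against transcript length in nt (x axis) for the 46 tested genes, coloured by role. Short transcripts of several roles lie lowest, down to -1.39 for PSMB5 and PSMB10, with PSMG3 of core assembly at -1.37 and the activator PSME2 at -1.18. PSME4, the longest, is highest at 1.31.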

How the data were processed

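The deposited table holds the authors' whole-number counts per gene symbol, with 1 column per library and no normalization. Per the submitters' processing notes, the tools were RSEM and DESeq2 and the build hg38. Versions and roles are not stated. The aligner, the annotation, the strand setting and whether the counts are rounded RSEM estimates are not given in the sources used here. Libraries were of stranded mRNA from TRIzol-extracted RNA, per the labels' protocols.

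All 58735 lines were fitted together with the edgeR quasi-likelihood test (edgeR 4.0.16, R 4.3.3; glmQLFit with robust estimation, TMM factors, filterByExpr with a minimum count of 10, and group as the single term). Two-sided p-values were adjusted over all tested genes (Benjamini-Hochberg), with a threshold of 0.05. The SE of a log2 fold change is its size over the square root of F. CPM are counts per 1e+06 of the TMM-scaled library total, and the precision of a low count is limited by counting error, which 3 counts as a floor cover alone. The fitting step was tested on simulated data. Replicates of a group never agreed within sampling noise (chi-square per degree of freedom 5.25 or higher), and each library was used as 1 replicate.

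Genome coordinates, transcript lengths, 3′ UTRs and shared 50-base words come from GENCODE 29 (GRCh38), with the longest well-supported coding transcript per gene, and promoters from RefSeq (GRCh38.p14). Values per library were printed for members past the threshold, for the catalytic and immunoproteasome subunits, for the highest and lowest fold change of each role, for POMP, SEM1, ADRM1 and NFE2L1, and for list genes past the threshold. The members, roles, list of 35 genes, words and this rule were chosen with earlier results of these data known. The alternatives were 3 other scalings, 2 filters, DESeq2 1.42.0, limma-voom (limma 3.58.1), the replicate number as a block, a threshold of 0.01 and the omission of each library. Library weights and the block without replicate number 2 were added after the data were seen.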

Additional observations from a re-analysis of the deposited data

Results flagged for a closer look

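In 24 of the 106 sets of 5 libraries checked (53 genes in 2 groups), 1 library lay far outside the range of the other 4. The rule was a Dixon critical value of 0.71, at which chance gives about 1 such set in 20 if sets are independent. These sets are genes read in the same libraries and are not independent, so that rate is only a rough guide. Of the 24, 22 were siUSP9X replicate 2, which was the low one for 16 genes and the high one for 6.

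The low values of siUSP9X replicate 2 were 8.25 CPM for PSMA1, 148 CPM for PSMA5, 206 CPM for PSMA7, 124 CPM for PSMB1, 119 CPM for PSMB3, 135 CPM for PSMB4, 58.4 CPM for PSMB5, 49.0 CPM for PSMB6, 156 CPM for PSMB7 and 28.6 CPM for PSMB9 in the core. In the cap and its partners they were 79.0 CPM for PSMC4, 79.5 CPM for PSMD8, 57.9 CPM for PSME1, 85.3 CPM for PSME2, 4.93 CPM for PSMD9 and 78.0 CPM for ADRM1. Its high values were 484 CPM for PSME4, 489 CPM for PSMD2, 381 CPM for PSMD1, 193 CPM for PSMD12, 164 CPM for PSMC6 and 117 CPM for PSMD7. The low genes include 10 of the core, but also PSMC4, PSMD8 and ADRM1 of the cap. The high genes are all in caps or the PSME4 activator. The part of transcript length in this division was not tested.

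The remaining 2 were in the control group. PSMD3 was low in siCtrl replicate 1, at 211 CPM against 234 to 242 CPM in the others, and PSMG2 was high in siCtrl replicate 2, at 43.8 CPM against 33.6 to 36.2 CPM.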

How the results depend on the processing

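With all libraries 0 members were higher and 4 lower, the list of 35 genes had 1 of each, and 570 of all tested genes were higher and 449 lower. DESeq2's test gave 1 and 15 members, 5 and 2 of the list, and 1264 and 1078 of all genes. Library weights in limma-voom, added after the data were seen, gave 2 and 28 members, 8 and 7 of the list, and 2473 and 2444 of all genes. A threshold of 0.01 left 1 member lower, 0 of the list higher, and 102 and 136 of all genes. With no filter 2 members were lower, against 328 of all genes, and with library totals 3 of the list were higher, against 691. The median over members stayed between -0.31 and -0.20 under every setting tried.

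The labels do not say whether the replicate numbers pair the samples. Same-numbered libraries had correlations of -0.42 to 0.23 in their deviations from the group means. In none was the own number the best match. So few correlations, 1 of them with siUSP9X replicate 2, cannot settle whether the samples are paired. With the replicate number as a block, 1 member was lower, 0 of the list was called in either direction, and 34 genes were higher and 57 lower. The block without replicate number 2, added after the data were seen, gave 1 member higher and 19 lower, 4 of the list higher and 4 lower, and 1582 and 1856 of all genes.

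Leaving out each library in turn gave 0 to 1 members higher and 2 to 20 lower, 0 to 5 of the list higher and 1 to 2 lower, and 170 to 1674 of all genes higher and 189 to 1620 lower. The upper end of each range was siUSP9X replicate 2. The cause was not tested.

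Signs turned round only for genes not called with all libraries, where their log2 fold changes were -0.08 (PSMA6) to 0.21 (PSMD12). PSMD1 kept its sign without siUSP9X replicate 2, where it was called lower at -0.26. Without 1 library PSMA2 ranged over -0.18 to 0.15, PSMA6 over -0.22 to 0.04, PSMD1 over -0.26 to 0.06, PSMD7 over -0.04 to 0.19 and PSMD12 over -0.05 to 0.28. PSMA2 was -0.00 under the block. In the block without number 2, PSMD12 was -0.05, PSMD7 -0.03, PSMD5 -0.02 and PSMA6 0.02. With library weights PSMD7 was -0.02 and PSMA4 0.00.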
